A study of Mus musculus with 2 samples.

Results

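The genes of the machinery that releases transmitter and peptide from vesicles were described across the cells of the mouse trigeminal ganglion, the ganglion that holds the sensory neurons of the face. A gene was taken as a member by its symbol alone, as a numbered synaptotagmin (Syt), syntaxin (Stx), VAMP or complexin (Cplx), as Snap23, Snap25, Snap29 or Snap47, as one of the synapsins Syn1, Syn2 and Syn3 or of the synaptic vesicle glycoproteins Sv2a, Sv2b and Sv2c, or as Napa, Napb or Nsf. This gave 56 of the 39098 symbols in the deposited files, with all 56 in the control and 54 in the CFA file, where Cplx3 and Syt8 had no counts. The rule itself uses no expression value.

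The cells came from right trigeminal ganglia of male C57BL/6 mice of 5 to 8 weeks, taken 7 days after an injection into the whisker (vibrissal) pad. The CFA group received 20 μL of complete Freund's adjuvant, an oil emulsion of killed mycobacteria that causes lasting inflammation, mixed 1:1 with saline. The control group received saline according to the study's methods, whereas the labels call it untreated. The methods give 6 mice per group, but the number of mice behind each library is not given in the sources used here. With 1 library per condition the difference between CFA and control had no replicate check, so no p-value was computed, and all intervals are 95% intervals that cover counting error only. Unique molecular identifiers (UMIs) are not independent of the cell they come from, and these intervals leave out the spread between cells and between animals.

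Release of a vesicle is driven by SNARE proteins. A VAMP on the vesicle zips together with a syntaxin and a SNAP-25 type protein on the target membrane and pulls the membranes together. Synaptotagmins sense the calcium that enters with an action potential, complexins hold and then assist the zipped SNAREs, and after fusion the ATPase NSF takes the complex apart with its adaptors α-SNAP and β-SNAP, which are encoded by Napa and Napb. SV2 proteins and synapsins belong to the vesicle itself, the latter tethering vesicles in a reserve pool. In sensory neurons the same machinery releases glutamate at the central terminals in the brainstem and neuropeptides such as CGRP at both ends of the fibre.

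After filtering, the control library held 6695 cells with 48233077 UMIs and the CFA library 3661 cells with 21658155 UMIs, among them 828 and 424 neurons with medians of 43495.5 and 35401 UMIs. Of the cell barcodes, 27 occurred in both libraries. Neurons were assigned to classes by the raw UMIs of marker genes, none of which is a member, and 758 control and 377 CFA neurons fell into exactly 1 of 8 classes. In the order control and CFA, these were 158 and 61 Mrgprd neurons (nonpeptidergic C fibres), 45 and 12 Mrgpra3 and 17 and 13 Sst neurons (itch classes), 50 and 24 Trpm8 neurons (cold), 67 and 43 C-fibre low-threshold mechanoreceptors (cLTMRs), 381 and 204 peptidergic C neurons with Calca and Tac1, 21 and 9 peptidergic neurons with high Nefh, and 19 and 11 neurons with high Nefh and little Calca, called Nefh neurons below. The neurotrophin receptor gene Ntrk3, used in no gate, stood at 309.6 and 373 CPM in Nefh neurons and 13.2 and 10.7 CPM in peptidergic C neurons, but Pvalb, a marker of proprioceptors, stood at 26.5 and 4.14 CPM in Nefh neurons against 12.9 and 10.1 CPM in all neurons. Satellite glia numbered 1029 and 390, myelinating Schwann cells 2090 and 1139 and oligodendrocytes 48 and 59.

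Levels below are counts per 1000000 UMIs (CPM) of the summed cells of a class, and paired values are given for the control and then the CFA library. The counts were made from the 3′ ends of transcripts, so a level was not divided by gene length, and genes are compared with each other only as shares of UMIs. The 44 members with an entry in RefSeq promoter tables (GRCm38.p6) gave 59 windows of 250 bases before to 50 bases after a transcription start. Their median GC content was 61.3%, against 52.7% over all 32851 windows. The letters GGGCGG, the core of a GC box, occurred on either strand in 36 of the 59 windows (61.0%), against 35.7% of all windows. TATAAA occurred in 4 of the 59 windows (6.78%), from 3 members (Stx2, Stx3 and Sv2b), against 13.6% of all windows. TTCAGCACC, the first part of the element bound by the neuronal gene repressor REST, occurred in 1 window (1.69%), of Syn1, against 0.371% of all windows. TGACGTCA, the full cAMP response element, occurred in 2 of the 59 windows (3.39%), of Napa and Syn1, against 1.79% of all windows. The E-box CACGTG occurred in 9 of the 59 windows (15.3%), from 8 members, against 7.15% of all windows. A match of letters is a description and not a binding site.

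The sequences shown are those of 3 members that stood far higher in Nefh than in peptidergic C neurons (Cplx1, Vamp1 and Syt3, described below) and of Syn1, which was even across the classes, each 5′ to 3′ on the strand of the gene. Capitals mark GGGCGG or its reverse complement in the first 3, and TTCAGCACC in Syn1.
Cplx1, chr5:108549978-108550277, minus strand: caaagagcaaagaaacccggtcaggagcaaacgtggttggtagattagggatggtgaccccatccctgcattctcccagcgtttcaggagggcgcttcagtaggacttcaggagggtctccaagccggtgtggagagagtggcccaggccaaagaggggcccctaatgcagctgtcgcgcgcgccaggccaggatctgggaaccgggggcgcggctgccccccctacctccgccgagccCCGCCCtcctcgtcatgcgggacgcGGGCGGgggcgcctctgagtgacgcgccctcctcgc
Vamp1, chr6:125215331-125215630, plus strand: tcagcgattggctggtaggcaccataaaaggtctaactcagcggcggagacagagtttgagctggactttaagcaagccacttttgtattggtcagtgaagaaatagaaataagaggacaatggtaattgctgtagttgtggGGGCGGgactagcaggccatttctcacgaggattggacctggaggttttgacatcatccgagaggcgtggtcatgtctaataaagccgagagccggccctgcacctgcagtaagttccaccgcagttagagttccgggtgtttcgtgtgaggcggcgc
Syt3, chr7:44383876-44384175, plus strand: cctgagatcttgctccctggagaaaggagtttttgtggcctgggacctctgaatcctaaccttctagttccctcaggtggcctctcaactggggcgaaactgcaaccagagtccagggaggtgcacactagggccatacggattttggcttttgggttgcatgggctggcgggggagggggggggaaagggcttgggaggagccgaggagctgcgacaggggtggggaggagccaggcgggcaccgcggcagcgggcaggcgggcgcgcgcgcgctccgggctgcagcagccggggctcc
Syn1, chrX:20920869-20921168, minus strand: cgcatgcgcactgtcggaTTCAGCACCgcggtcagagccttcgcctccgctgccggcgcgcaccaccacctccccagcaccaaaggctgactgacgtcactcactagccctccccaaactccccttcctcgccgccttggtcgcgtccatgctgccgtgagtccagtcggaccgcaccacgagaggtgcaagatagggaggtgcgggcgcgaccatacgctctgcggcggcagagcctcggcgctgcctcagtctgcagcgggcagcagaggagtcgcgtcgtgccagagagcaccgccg

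The Cplx1 window held 2 matches of GGGCGG and had a GC content of 67.0%. The Vamp1 window held 1 match at 51.7% GC, and the Syt3 window none at 66.3% GC. These letters in the window were thus not common to the 3 genes.

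Members made up a larger part of the RNA of neurons than of any glial class. Their summed level was 10787 and 11075 CPM in all neurons, 2609.97 and 2799 CPM in satellite glia, 1971 and 1947 CPM in myelinating Schwann cells, and 4979 and 5162 CPM in oligodendrocytes. Among the neuron classes the sum was highest in Trpm8 neurons (12778 and 12695 CPM) and Nefh neurons (11998 and 12754 CPM) and lowest in Sst neurons (8620.3 and 8863 CPM). Syt11 took the largest share of member UMIs in neurons (14.8% and 15.9%), followed by Snap25 (11.5% and 11.2%).

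**Figure D1:**
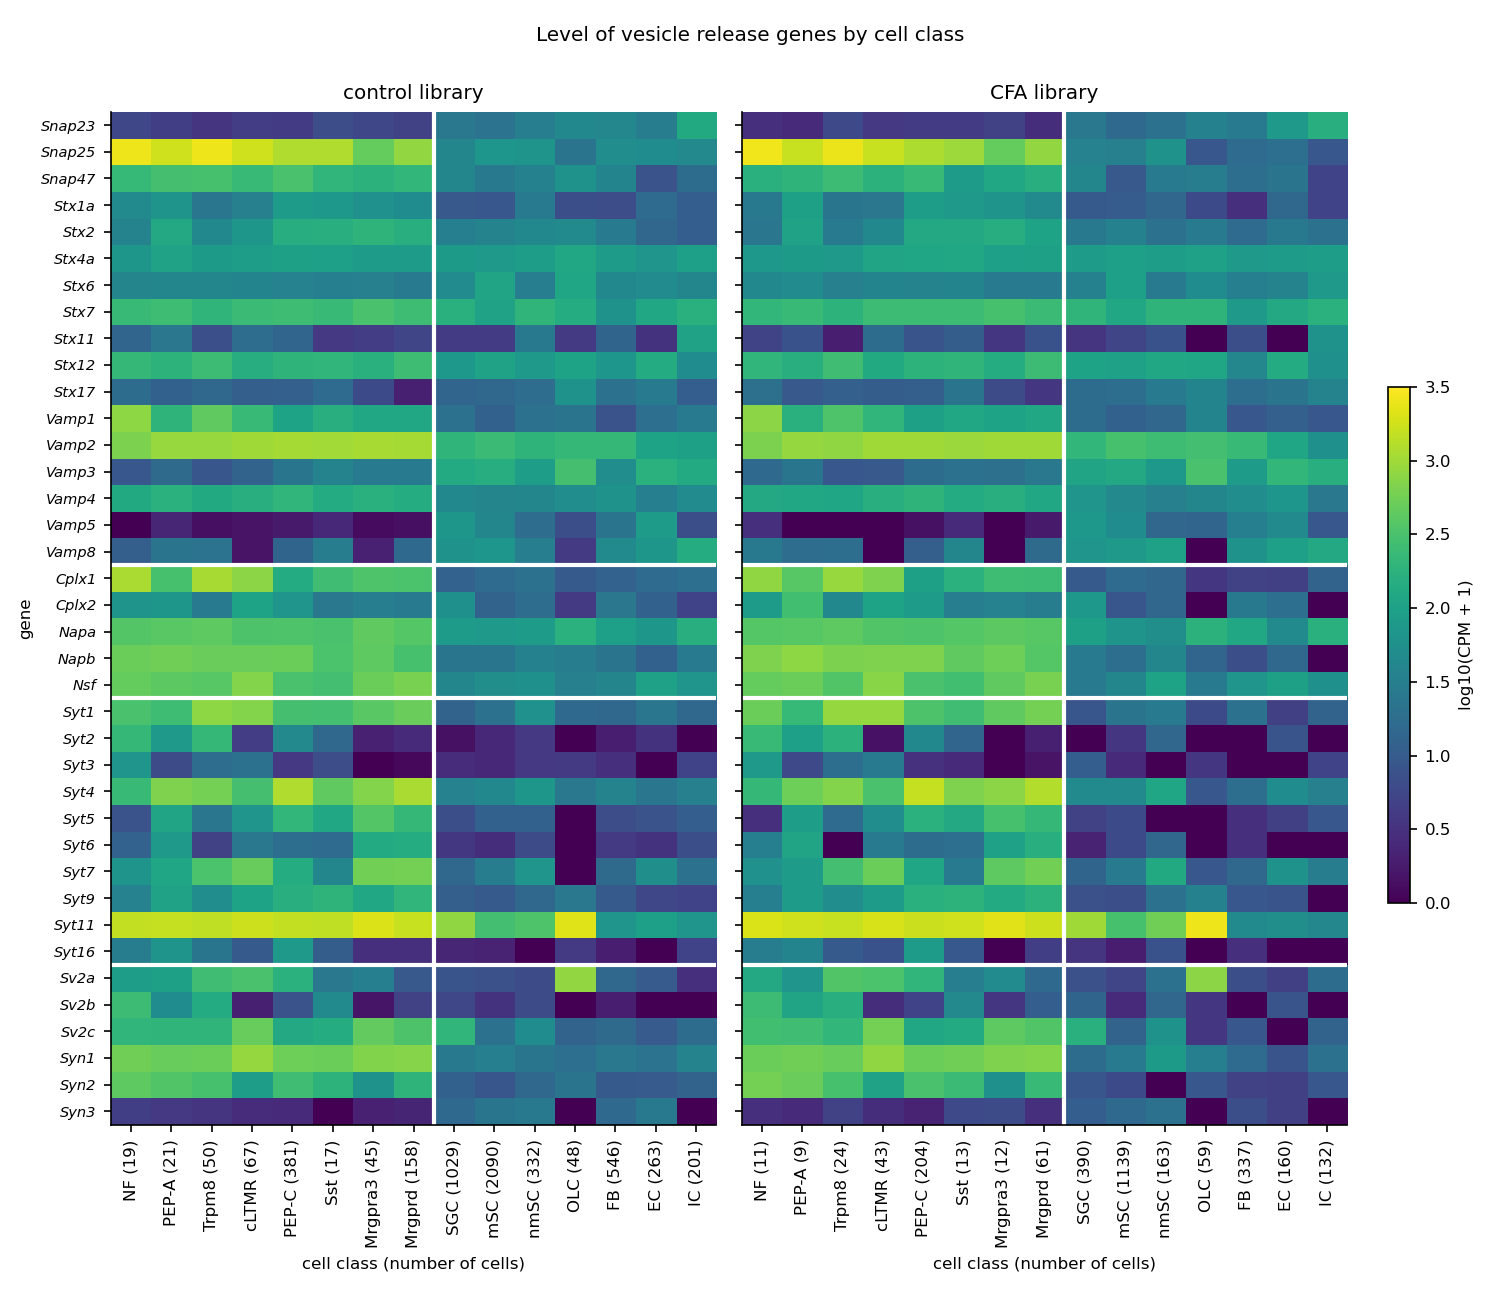
Level of 38 members named by a fixed rule, as log10(CPM + 1), in 8 neuron classes and 7 non-neuronal classes of the control (left) and CFA (right) library, with the number of cells of each class in brackets. Snap25 was bright in the neuron classes, whereas Vamp3, Vamp5 and Snap23 were brighter in the non-neuronal classes. Vamp8 was brighter in satellite glia and immune cells but had 1 and 0 UMIs in oligodendrocytes.

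Compared with satellite glia, which wrap the neuron bodies, 28 of 45 members with at least 50 UMIs in each library's pair were at least 2-fold higher in neurons in both libraries, where 30.0% of all 12316 genes tested were. The core synaptic genes were far apart. Snap25, the plasma membrane SNARE cleaved by botulinum toxin A, stood at 1238 and 1243 CPM in neurons and 39.6 and 35.2 CPM in satellite glia, a ratio of 31.3 and 35.4-fold. Cplx1 stood at 371 and 302 CPM against 11.7 and 8.79 CPM (31.7 and 34.3-fold). Syn1 stood at 639 and 609 CPM against 25.2 and 16.3 CPM (25.4 and 37.3-fold). Syt1, the calcium sensor of fast release, had log2 ratios of 5.17 and 6.06, on 27 and 6 UMIs in satellite glia. Its relative Syt2 had 1 and 0 UMIs in satellite glia, and at a floor of 3 counts 0 UMIs allowed a level of up to 3.77 CPM, against 41.7 CPM in the CFA neurons. The recycling factors were less unequal, with log2 ratios of 4.34 and 4.41 for Napb, 3.60 and 4.08 for Nsf and 2.11 and 1.94 for Napa, whose product serves membrane fusion in every cell.

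RNA set free from broken neurons can give neuronal UMIs in other cells. For 7 neuron markers that are no members (Prph, Stmn2, Elavl4, Nefl, Uchl1, Calca and Tac1), the level in satellite glia was 3.30% to 5.14% (median 3.93%) of that in neurons of the control and 1.80% to 4.16% (median 2.34%) of the CFA library. The satellite glial level of Snap25 was 3.20% and 2.83% of the neuronal one, that of Cplx1 3.15% and 2.91% and that of Syn1 3.94% and 2.68%, none of them above the range of the markers. In the control library Snap25 and Cplx1 lay just below the lowest marker. Whether those values are background or expression in glia was not tested. Napb (4.95% and 4.70%) lay inside that range for the control library and above it for the CFA library. In satellite glia a median cell held 1971 and 1833.5 UMIs.

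Several members were far above that range. Syt11, a synaptotagmin that does not bind calcium, stood at 838 and 1016 CPM in satellite glia, 52.3% and 57.7% of its neuronal level, and made up 32.1% and 36.3% of their member UMIs. Vamp2, the main synaptobrevin, stood at 196 and 203 CPM (19.0% and 21.1%), and the endosomal syntaxin Stx7 at 167 and 192 CPM (66.1% and 78.5%). Sv2c reached 203 and 165 CPM, 76.4% and 59.8% of its neuronal level, where its relative Sv2a was at 5.83% and 3.92%. Cplx2 reached 55.8 and 71.6 CPM, 107% and 91.7% of its neuronal level, where Cplx1 was at 3.15% and 2.91%. The median log2 ratio of all genes between neurons and satellite glia was 0.42 and 0.34, and relative to that median Sv2c in the control and Cplx2 in the CFA library changed from the higher side of neurons to the lower (-0.03 and -0.22).

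The 4 members at least 2-fold higher in satellite glia in both libraries were Snap23, Vamp3, Vamp5 and Vamp8, the SNAREs of release and traffic outside neurons, where 14.1% of all genes tested were that much higher. Vamp3, or cellubrevin, stood at 136 and 111 CPM in satellite glia against 21.3 and 17.9 CPM in neurons, a log2 ratio of neurons over satellite glia of -2.67 and -2.62. Snap23 stood at 24.3 and 23.9 CPM against 3.59 and 2.85 CPM (log2 -2.76 and -3.07). Vamp8 stood at 62.1 and 65.3 CPM against 11.9 and 11.9 CPM (log2 -2.39 and -2.46). Vamp5 was almost absent from neurons, with 22 and 8 UMIs in all of them against 155 and 57 in the far shallower satellite glia. Of the UMIs of Vamp2 and Vamp3 together, Vamp3 held 2.03% and 1.82% in neurons, 41.0% and 35.2% in satellite glia and 57.7% and 52.4% in oligodendrocytes. With at least 200 UMIs required, Snap23 and Vamp5 were no longer tested.

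**Figure D2:**
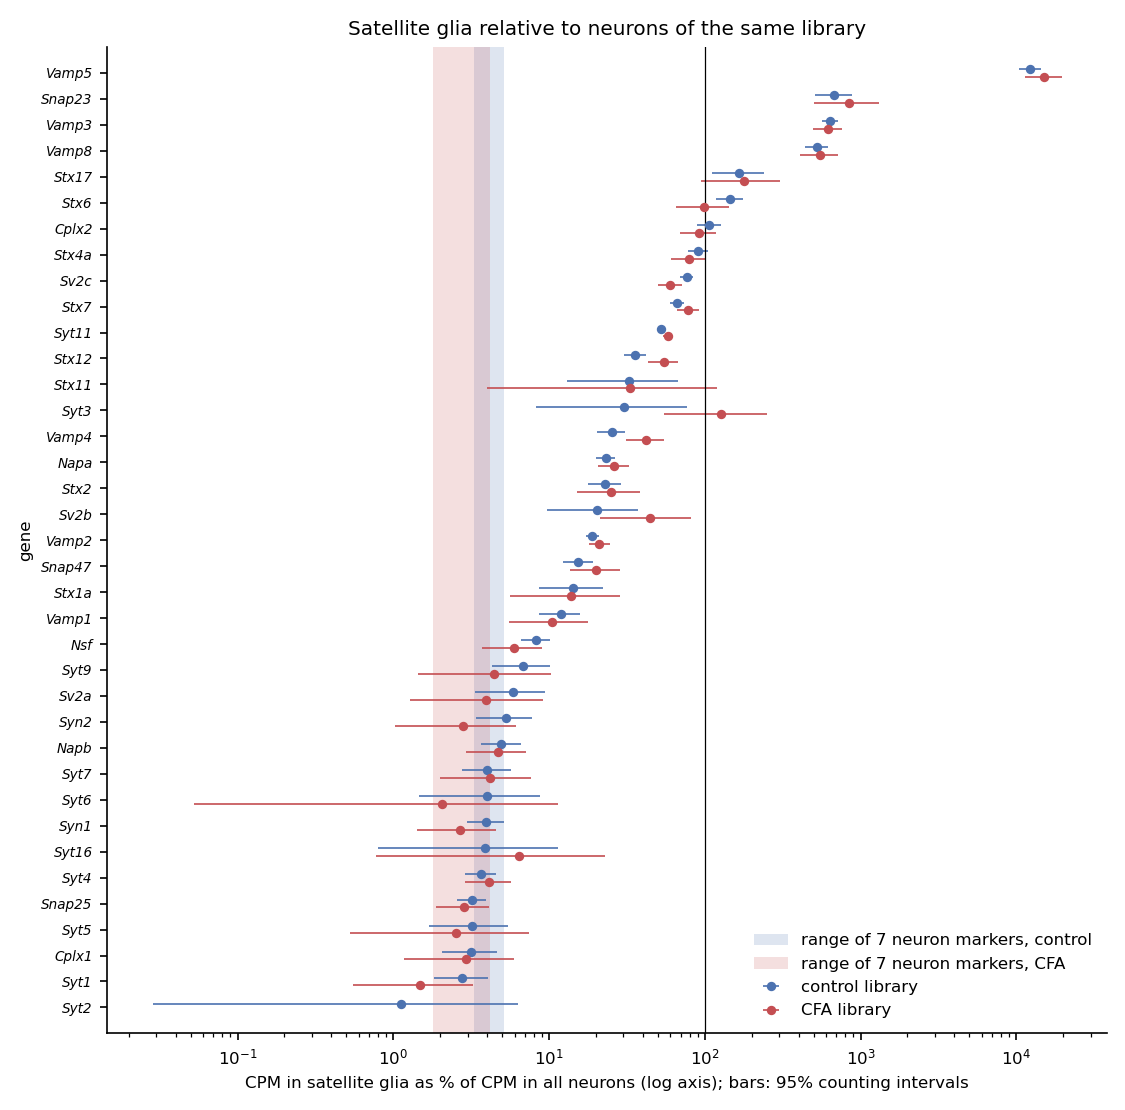
Level of named members in satellite glia as percent of the level in neurons of the same library (log axis), with 95% counting intervals, shaded bands for the range of 7 neuron markers that are no members and a line at 100%; Syt2 had 0 UMIs in CFA satellite glia and is not drawn there. Snap25, Cplx1 and Syn1 lay in the bands or just below them, whereas Syt11, Sv2c and Cplx2 lay far to their right and Vamp3, Vamp5, Vamp8 and Snap23 beyond 100%.

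Oligodendrocytes, few in the ganglion, stood out by Sv2a and shared other high members with further classes. Sv2a, described in neurons as the binding site of the antiepileptic levetiracetam, stood at 853 and 786 CPM there against 124 and 160 CPM in neurons and 6.44 and 4.31 CPM in myelinating Schwann cells. It held 98.6% and 99.3% of SV2 UMIs in oligodendrocytes. Syt11 stood at 2163 and 2593 CPM and gave 43.4% and 50.2% of their member UMIs. The autophagosome syntaxin Stx17 stood at 59.7 and 36.4 CPM against 7.86 and 9.15 CPM in neurons. Stx17 was above its neuronal level in every other non-neuronal class too, at 166% and 178% in satellite glia on 29 and 13 UMIs. The 7 neuron markers ran from 1.97% to 16.2% and from 0.566% to 15.3% of the neuronal level in oligodendrocytes. The upper end was Uchl1 alone, and the next marker was Elavl4 at 4.30% and 2.01%. The Golgi and endosome syntaxin Stx6 stood at 109 and 93.0 CPM in myelinating Schwann cells against 33.3 and 34.4 CPM in neurons. In oligodendrocytes Stx6 was also above its neuronal level, at 341% and 144% of it. Syn3 was low wherever it was found, at 21.6 and 14.6 CPM in myelinating Schwann cells, 14.9 and 10.05 CPM in satellite glia and 1.71 and 2.20 CPM in neurons. Outside the glia, Vamp8, Snap23 and Stx11, which act in secretion by blood cells, stood at 148 and 128 CPM, 132 and 160.2 CPM and 102 and 60.1 CPM in immune cells.

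Within neurons, members differed widely in how evenly they were spread. In the 4 classes with at least 15 neurons in each library (Mrgprd, Trpm8, cLTMR and peptidergic C neurons), 43 members had at least 200 neuronal UMIs. Of these, 33 were highest in the same class in both libraries and 37 lowest in the same class. The highest and lowest class differed under 2-fold in both libraries for 15 members, at least 4-fold for 13 and at least 10-fold for 8, among them Sv2a, Sv2b, Syt2, Syt3, Syt6, Syt16 and Vamp8. These counts were made for members only. Without the share over all genes they cannot be read as a trait of the family. Over all 8 classes, 7 members were highest in Nefh neurons in both libraries (among them Snap25, Stx8, Sv2b, Syn2, Syt3 and Vamp1), 5 in Mrgpra3, 4 in cLTMR, 3 in Mrgprd, 3 in peptidergic C, 2 in Sst, 1 in Trpm8 and 1 in peptidergic high-Nefh neurons, and 17 in different classes. This ranking too was made for members only, and the Nefh class held just 19 and 11 neurons. Whether all genes rank the classes alike was not tested.

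Snap25 (chr2:136713453-136782428, plus strand, GRCm38, as for all positions below) was found in every class but not at one level. It stood at 2582 CPM (95% interval 2477 to 2692) and 2648 CPM (95% interval 2505 to 2797) in Nefh neurons and at 2565 and 2461 CPM in Trpm8 neurons. It was lower in cLTMRs (1789 and 1603 CPM), peptidergic high-Nefh neurons (1773 and 1604 CPM), peptidergic C neurons (1213 and 1157 CPM), Sst neurons (1202 and 985 CPM) and Mrgprd neurons (852 and 856 CPM). Mrgpra3 neurons came last at 475 CPM (95% interval 453 to 498) and 467 CPM (95% interval 419.9 to 519). The counting intervals of Nefh and Trpm8 neurons overlapped in both libraries, as did those of cLTMRs and peptidergic high-Nefh neurons, those of peptidergic C and Sst neurons overlapped in the control alone, and all other neighbours in this order were apart in both. Among single control neurons of at least 5000 UMIs, Snap25 ran from 1452 through a median of 2806 to 3620.1 CPM in Nefh neurons and from 276 through 452 to 813 CPM in Mrgpra3 neurons, so the neurons of these classes did not overlap.

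Cplx1 (chr5:108518554-108550024, minus strand), the main complexin, had the same leading classes. Its level was 1140.5 and 830.1 CPM in Nefh neurons, 1105 and 901 CPM in Trpm8 neurons and 768 and 671 CPM in cLTMRs. It was 347 and 261 CPM in Mrgpra3, 317 and 252 CPM in Mrgprd, 305 and 384 CPM in peptidergic high-Nefh and 262 and 172 CPM in Sst neurons, and lowest in peptidergic C neurons at 141 and 97.04 CPM. Trpm8 neurons were not alike among themselves, since the lower quartile, median and upper quartile of single control neurons were 381, 934 and 1439 CPM. The Trpm8 gate set no limit on Nefh, so neurons with high Nefh could fall in this class. Cplx2, the relative of Cplx1, was highest in cLTMRs of the control library (106 and 107 CPM) and stood at 64.9 and 81.7 CPM in peptidergic C and 26.3 and 28.3 CPM in Mrgprd neurons. The share of Cplx1 among the UMIs of both was 97.6% and 95.5% in Trpm8, 94.7% and 90.7% in Nefh and 68.5% and 54.3% in peptidergic C neurons.

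Sv2b (chr7:75114894-75309262, minus strand) was the most uneven of the 4 marker genes of the family. It stood at 249.7 and 253 CPM in Nefh neurons and 139.7 and 153 CPM in Trpm8 neurons. Peptidergic high-Nefh neurons followed with 49.7 and 109 CPM and Sst neurons with 46.8 and 43.8 CPM. The remaining classes were at 6.94 and 4.07 CPM (peptidergic C), 3.95 and 10.2 CPM (Mrgprd), 1.04 and 1.89 CPM (cLTMR) and 0.561 and 2.63 CPM (Mrgpra3). Among neurons with at least 5000 UMIs, which left out 10 and 5 peptidergic C neurons, 2 and 0 Mrgprd neurons and 0 and 1 cLTMRs, at least 1 UMI of Sv2b was found in 100% of Nefh neurons of both libraries and in 90.0% and 91.7% of Trpm8 neurons, against 12.4% and 9.05% of peptidergic C neurons, 13.5% and 16.4% of Mrgprd neurons and 5.97% and 7.14% of cLTMRs. With each of them thinned to 5000 UMIs the shares were 52.6% and 72.7% of Nefh, 44.0% and 58.3% of Trpm8, 3.23% and 3.02% of peptidergic C and 1.92% and 3.28% of Mrgprd neurons, and 0 of 67 and 0 of 42 cLTMRs (upper 95% limits 5.36% and 8.41%). Median neurons held 48092 and 49045 UMIs in the Nefh class, 34695 and 30815.5 in peptidergic C neurons and 53516 and 48058 in cLTMRs. In satellite glia Sv2b stood at 20.3% (95% interval 9.75% to 37.4%) and 44.6% (95% interval 21.4% to 82.0%) of its neuronal level on 10 UMIs in each library, above the range of the 7 neuron markers. There 0.972% and 2.05% of cells had a UMI of Sv2b, at 1971 and 1833.5 UMIs per median cell.

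Napb (chr2:148693985-148732467, minus strand) was spread evenly. Its level ran from 303 and 379 CPM in Mrgprd neurons to 551 and 793 CPM in peptidergic high-Nefh neurons, with 524 and 665 CPM in Nefh and 511 and 660.3 CPM in peptidergic C neurons. Napa stood at 368 and 367 CPM in all neurons, and Nsf at 713 and 763 CPM in cLTMRs, its highest class, against 313 and 314 CPM in peptidergic C neurons. The share of Napb among the UMIs of Napa and Napb was 54.3% and 61.6% in all neurons, 44.4% and 49.7% in Mrgprd neurons and 60.1% and 65.5% in peptidergic C neurons.

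The partners of Snap25 came as pairs of isoforms whose balance differed between classes. Vamp1 (chr6:125215551-125245964, plus strand), the synaptobrevin of many motor and hindbrain terminals, stood at 791 and 774 CPM in Nefh neurons, 441 and 346 CPM in Trpm8 neurons, 224 and 201 CPM in cLTMRs and 107 and 96.7 CPM in peptidergic C neurons. Vamp2 went the other way over a narrow range, with 636 and 648 CPM in Nefh and 1072 and 988 CPM in peptidergic C neurons. Vamp1 therefore held 55.4% (95% interval 52.6 to 58.2) and 54.4% (95% interval 50.6 to 58.2) of the UMIs of both in Nefh neurons, 32.7% and 29.1% in Trpm8 neurons, 18.4% and 16.7% in cLTMRs and 9.05% and 8.92% in peptidergic C neurons. Of the 8 classes, Nefh neurons alone had more UMIs of Vamp1 than of Vamp2.

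The synaptic syntaxin Stx1a stood at 82.2 and 89.5 CPM in peptidergic C, 49.1 and 45.9 CPM in Mrgprd and 22.7 and 21.6 CPM in Trpm8 neurons. It was lower in Trpm8 than in peptidergic C neurons of both libraries. The plasma membrane syntaxin Stx2 had its highest level in Mrgpra3 neurons (188 and 149 CPM) and a low one in Nefh neurons (35.7 and 22.8 CPM). Vamp8, an endosomal and secretory SNARE, was found in Sst neurons at 29.8 and 39.0 CPM and Trpm8 neurons at 20.8 and 17.7 CPM, while cLTMRs had 2 and 0 UMIs of it.

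**Figure D3:**
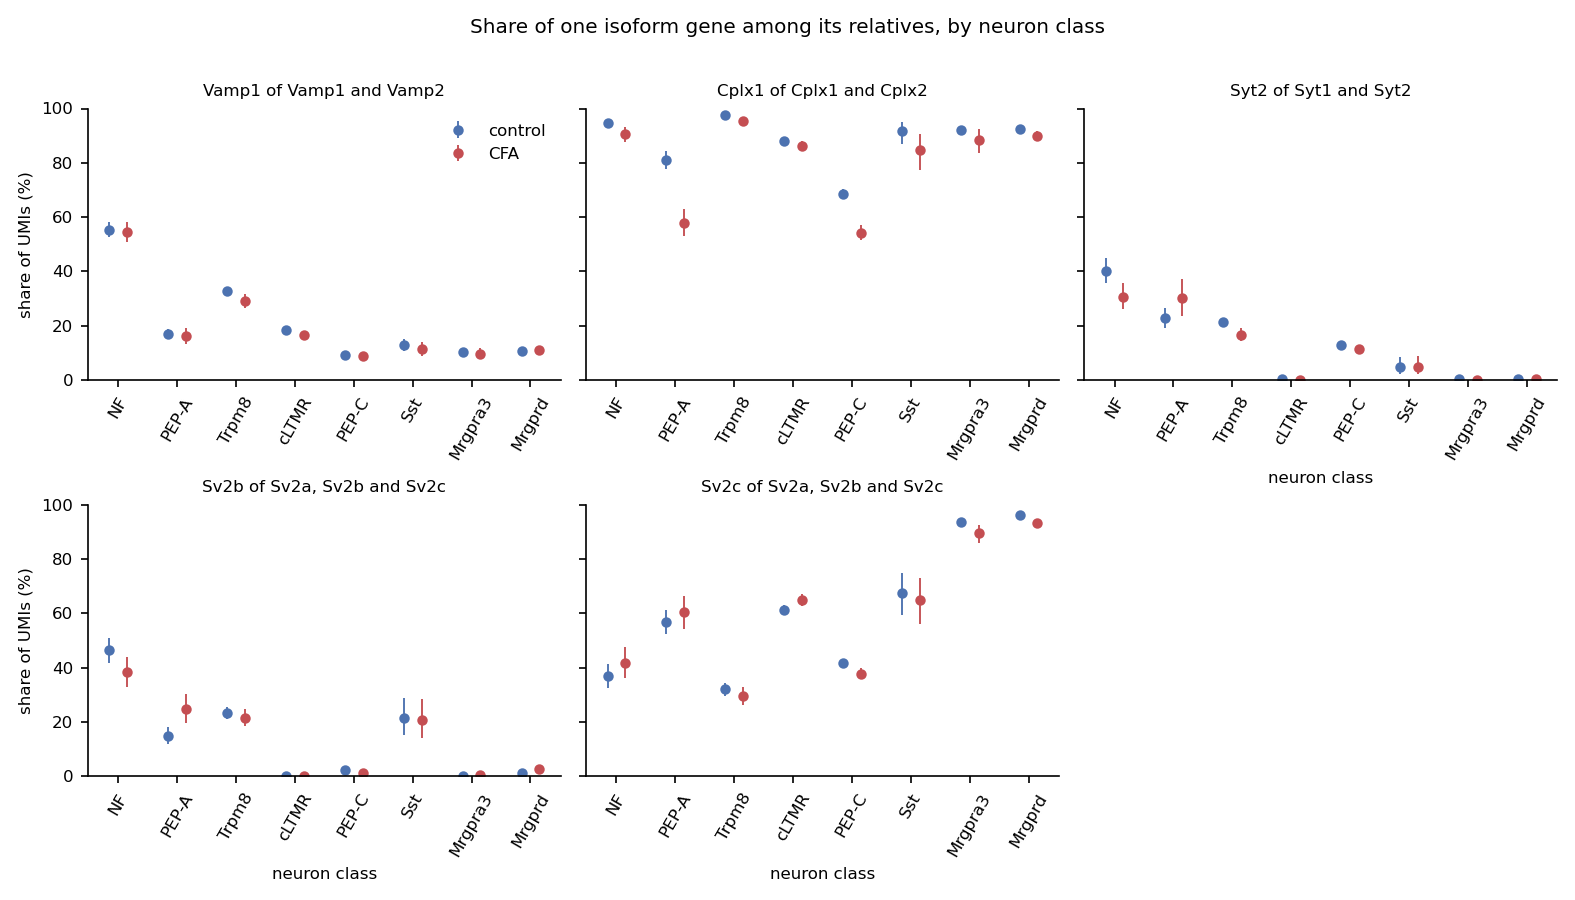
Share of UMIs held by 1 isoform gene among its relatives (percent), by neuron class and library, with 95% Clopper-Pearson intervals for counting error. The Vamp1 share was highest in Nefh (NF) neurons at 55.4% and 54.4%, and the Sv2c share highest in Mrgprd neurons at 96.4% and 93.5%.

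Of the 15 members with under 2-fold range across those 4 classes, 8 are SNAREs that serve endosomes, the Golgi or the endoplasmic reticulum (Stx5a, Stx6, Stx7, Stx8, Stx12, Stx16, Stx18 and Vamp4). Other endosomal SNAREs such as Vamp8 and Vamp3 had a wider range. Stx7 stood at 253 and 245 CPM in all neurons, Stx12 at 205 and 194 CPM, Vamp4 at 168 and 156 CPM and the plasma membrane syntaxin Stx4a at 88.8 and 104 CPM. Snap47, a SNAP-25 relative without a membrane anchor, stood at 254 and 194 CPM. Stx17, the autophagosome syntaxin, had a wider range, with 1.03 and 2.62 CPM in Mrgprd and 13.9 and 10.8 CPM in Trpm8 neurons.

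Several synaptotagmins differed by over 10-fold between classes, and not in the same order. Of the fast calcium sensors, Syt1 was present in every class and highest in Trpm8 neurons (793 and 884 CPM) and cLTMRs (701 and 874 CPM), with 293 and 331 CPM in peptidergic C neurons. Syt2, the sensor of fast hindbrain and motor terminals, stood at 214 and 177 CPM in Trpm8, 211 and 229.8 CPM in Nefh, 76.3 and 93.5 CPM in peptidergic high-Nefh and 43.0 and 42.5 CPM in peptidergic C neurons. It was at 1.69 and 1.05 CPM in Mrgprd neurons and 3.37 and 0.472 CPM in cLTMRs. Its share among the UMIs of Syt1 and Syt2 was 40.2% and 30.7% in Nefh and 0.335% and 0.179% in Mrgprd neurons. Syt9, the third fast sensor, went the other way, with 203 and 177 CPM in Mrgprd and 34.5 and 31.1 CPM in Nefh neurons.

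Syt7, the slow and sensitive sensor of asynchronous release and of peptide vesicles, was highest in Mrgprd neurons (591 and 568 CPM) and stood at 490.1 and 515 CPM in cLTMRs, 147 and 117 CPM in peptidergic C and 63.3 and 58.0 CPM in Nefh neurons. Syt3, another sensitive sensor, was a minor gene that stood at 65.6 and 74.5 CPM in Nefh neurons, 19.7 and 25.5 CPM in cLTMRs and 16.5 and 17.7 CPM in Trpm8 neurons, with 2 and 2 UMIs in all Mrgprd neurons. Its relative Syt6 was highest in Mrgprd neurons at 144 and 159 CPM, with 138 and 100 CPM in Mrgpra3 and 3.85 and 0 CPM in Trpm8 neurons. Its log2 ratio of Nefh over peptidergic C neurons was -0.62 and 0.95, with opposite signs in the libraries. In the CFA library 0 UMIs of Syt6 in Trpm8 neurons allowed a level of up to 2.95 CPM. Syt5 stood at 360.2 and 300.1 CPM in Mrgpra3, 211 and 211 CPM in Mrgprd and 206 and 169.5 CPM in peptidergic C neurons, and at 22.7 and 15.7 CPM in Trpm8 neurons.

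Syt11 and Syt4, which lack calcium binding in their first C2 domain, had the most UMIs of the synaptotagmins in all neurons. Syt4, which is found on peptide vesicles, stood at 1201 and 1554 CPM in peptidergic C and 1124 and 1229 CPM in Mrgprd neurons and at 294 and 309 CPM in cLTMRs and 227 and 211 CPM in Nefh neurons. Syt11 was even, at 1601 and 1761 CPM in all neurons, with Mrgpra3 neurons highest (2089 and 2204 CPM). Syt16 stood at 77.9 and 83.8 CPM in peptidergic C and 63.7 and 36.7 CPM in peptidergic high-Nefh neurons, against 2.07 and 3.41 CPM in Mrgprd neurons and 8.82 and 6.60 CPM in cLTMRs.

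The balance of the SV2 genes differed between classes. The largest share was that of Sv2c in Mrgprd, Mrgpra3, Sst, cLTMR and peptidergic high-Nefh neurons of both libraries. Sv2c held 96.4% and 93.5% of SV2 UMIs in Mrgprd and 93.6% and 89.6% in Mrgpra3 neurons, but 32.0% and 29.4% in Trpm8 neurons. Its level was highest in cLTMRs, at 491 and 590.4 CPM, against 127 and 123.1 CPM in peptidergic C neurons. Sv2a held the largest share in peptidergic C neurons (56.1% and 61.0%) and Trpm8 neurons (44.7% and 49.0%). The level of Sv2a ran from 308 and 317 CPM in cLTMRs and 269 and 349 CPM in Trpm8 neurons to 8.46 and 14.7 CPM in Mrgprd neurons. Sv2b held 46.4% and 38.4% in Nefh neurons, where Sv2c held 36.8% and 41.8%. In cLTMRs Sv2b held 0.130% and 0.207%. Of the synapsins, Syn1 was even (639 and 609 CPM, highest in cLTMRs at 894 and 841 CPM). Syn2 ran from 428 and 579.6 CPM in Nefh neurons to 58.9 and 55.3 CPM in Mrgpra3 neurons. In cLTMRs Syn2 stood at 91.03 and 104 CPM. Syn1 held 91.8% and 91.7% of synapsin UMIs in Mrgpra3 and 56.0% and 46.98% in Nefh neurons.

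Nefh neurons were then set against peptidergic C neurons, the largest class. The paper calls its own Nefh-positive class myelinated neurons. Fibre size was not measured here. Of 43 members tested, 6 were at least 2-fold higher in Nefh neurons in both libraries (Sv2b, Syt3, Cplx1, Vamp1, Syt2 and Snap25), where 4.50% of all 9996 genes were. Another 6 were at least 2-fold lower (Syt5, Syt4, Syt9, Stx2, Syt16 and Syt7), where 7.68% of all genes were. Those that were lower were all synaptotagmins except the syntaxin gene Stx2.

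The log2 ratio of Nefh over peptidergic C neurons was 5.17 (95% interval 4.82 to 5.53) and 5.96 (95% interval 5.35 to 6.61) for Sv2b, 36.0 and 62.1-fold. For Cplx1 it was 3.01 (95% interval 2.90 to 3.12) and 3.10 (95% interval 2.91 to 3.28), 8.08 and 8.55-fold, and for Vamp1 2.89 (95% interval 2.76 to 3.02) and 3.00 (95% interval 2.81 to 3.19), 7.41 and 8.00-fold. It was 4.56 and 5.14 for Syt3, 2.29 and 2.43 for Syt2 and 1.09 and 1.19 for Snap25. The promoter windows printed above are those of Cplx1, Vamp1 and Syt3 among these 6. In the other direction Syt5 had 6 and 1 UMIs in Nefh against 2880 and 1125 in peptidergic C neurons, a log2 ratio of -4.90 (95% interval -6.35 to -3.77) in the control library, and Syt4 had log2 ratios of -2.40 and -2.88. Vamp2 had log2 ratios of -0.75 and -0.61 and Napb of 0.04 and 0.01, both short of 2-fold.

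The 11 Nefh neurons of the CFA library were few, and the neuron with the most UMIs of a gene held 36.1% of those of Syt3, 31.8% of Vamp1, 31.5% of Syt2 and 26.7% of Cplx1. Without that neuron all 6 higher members were still past 2-fold in both libraries. Under doubled marker thresholds 9 members were at least 2-fold lower in Nefh neurons, 5 of them among the 6, and Syt7 was no longer one (-0.45 and -0.74). With every cell weighted equally, Syt7 had a log2 ratio of -0.29 in the CFA library.

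**Figure D4:**
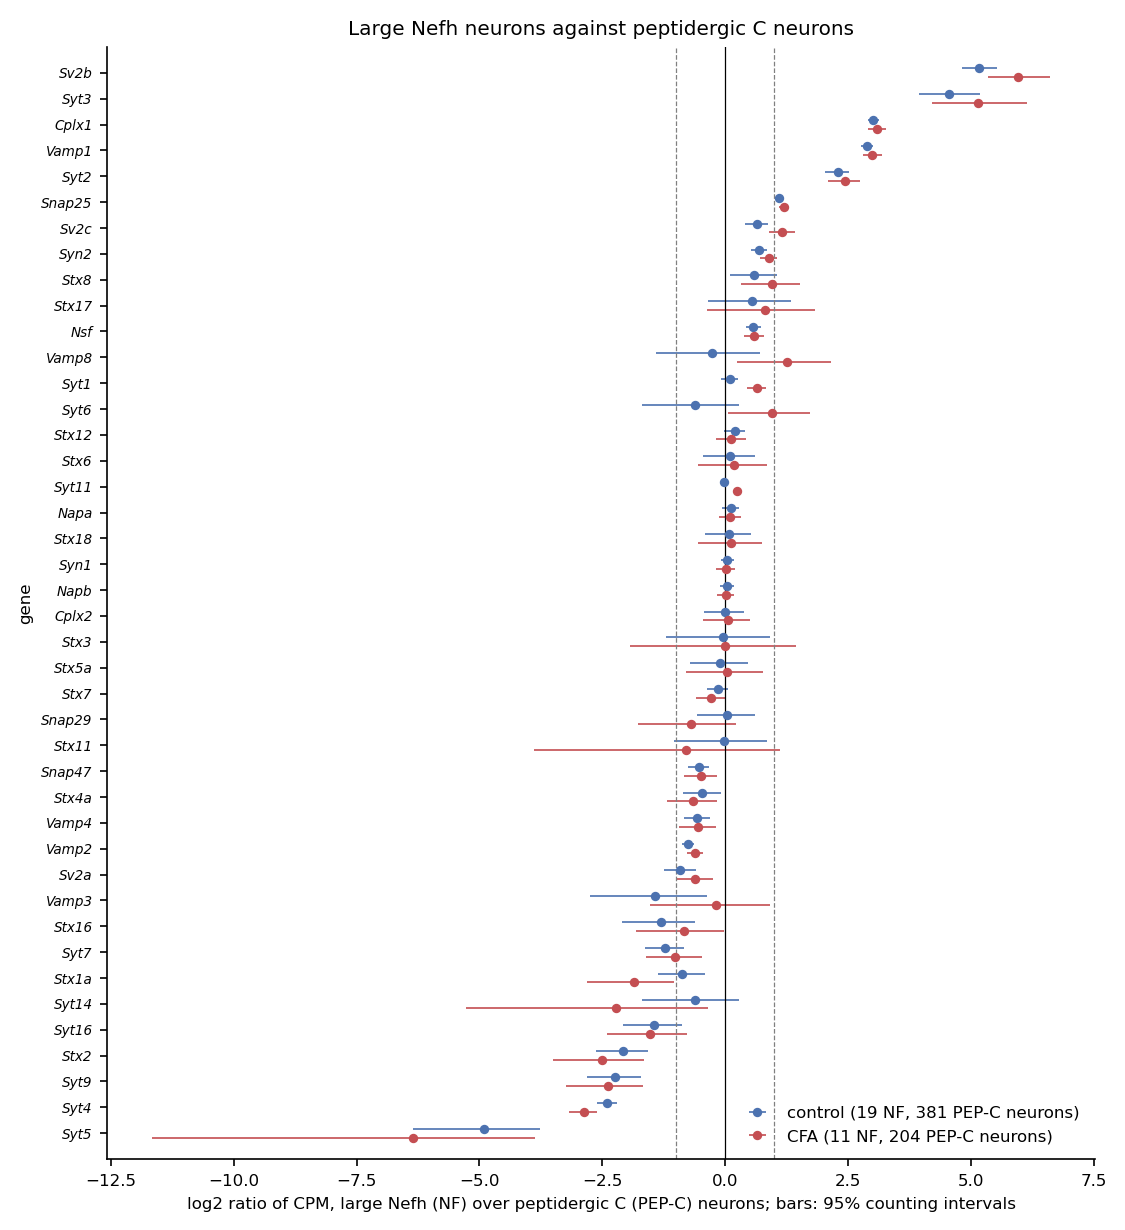
Log2 ratio of CPM in Nefh (NF) over peptidergic C (PEP-C) neurons for 42 of the 43 members tested, in the control and CFA library, with 95% counting intervals and dashed lines at 2-fold. Sv2b, Syt3, Cplx1, Vamp1, Syt2 and Snap25 lay beyond the line on the right in both libraries, and Syt5 lay farthest to the left.

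The study set CFA against control ganglia to see what orofacial inflammation changes. Over all neurons the members as a set stood close to level between the libraries. Of 47 with at least 50 UMIs, 1 had a log2 ratio of CFA over control of at least 0.5 (Cplx2), where 6.46% of all 14544 genes did, and 0 were that much lower, where 6.05% of all genes were. The median log2 ratio of the members was 0.00101, and that of all genes was -0.000908. Snap25, the most abundant SNARE by UMIs, stood at 1238 CPM (95% interval 1227 to 1249) and 1243 CPM (95% interval 1227 to 1260.3), a log2 ratio of 0.01 (95% interval -0.02 to 0.03). Vamp2 stood at 1030.3 and 966 CPM (log2 -0.09, 95% interval -0.12 to -0.07).

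The single call did not hold under every setting. Cplx2 (chr13:54371349-54383917, plus strand) stood at 52.2 and 78.1 CPM, a log2 ratio of 0.58 (95% interval 0.48 to 0.68). A single peptidergic high-Nefh neuron of the CFA library held 105 of the library's 1315 neuronal UMIs of the gene, and 62.9% of those of its class. Without the neuron with the most UMIs in each library, the levels were 51.6 and 72.4 CPM and the log2 ratio 0.488, short of 0.5. The ratio was 0.11 (95% interval -0.23 to 0.43) in Mrgprd neurons, 0.02 (95% interval -0.22 to 0.26) in cLTMRs and 0.33 (95% interval 0.17 to 0.49) in peptidergic C neurons. Neurons in no class, those with more than 1 class marker among them, stood at 67.8 and 180.4 CPM and differed more. With the same mix of classes in both libraries the ratio was 0.37, and with each neuron weighted equally 0.80.

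Below the 0.5 line, a few members leaned the same way in every class. Napb stood at 437 and 588 CPM in all neurons, a log2 ratio of 0.43 (95% interval 0.39 to 0.47), and was higher in the CFA library in 8 of 8 classes (0.32 in Mrgprd, 0.41 in cLTMR, 0.37 in peptidergic C and 0.34 in Nefh neurons). Its partner Napa stood at 368 and 367 CPM, so the share of Napb was higher. The paper called genes at a smaller fold change, by a test across the cells of a random subsample of each library. It reported Napb as upregulated in its Sst-marked peptidergic class and in cLTMRs. Snap47 stood at 254 and 194 CPM, a log2 ratio of -0.39 (95% interval -0.45 to -0.33), and was lower in 8 of 8 classes. Stx2 stood at 136 and 100.9 CPM (log2 -0.43, 95% interval -0.51 to -0.35) and was also lower in 8 of 8. Among 37 members with at least 1000 neuronal UMIs, 3 were higher in all 8 classes (Cplx2, Napb and Syt11) and 3 lower (Snap47, Stx2 and Vamp1), 8.11% each, where 5.07% and 6.94% of all 7520 such genes were. The classes share a library, so these directions are not separate observations.

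Further members differed by less than that line between the libraries. Cplx1 stood at 371 and 302 CPM (log2 -0.30, 95% interval -0.34 to -0.25) and was lower in the CFA library in 7 of 8 classes. Syn2 stood at 213 and 269 CPM (log2 0.33, 95% interval 0.28 to 0.38), Sv2a at 124 and 160 CPM (log2 0.37, 95% interval 0.30 to 0.44), Syt5 at 184 and 148 CPM (log2 -0.31, 95% interval -0.38 to -0.25) and Syt7 at 359 and 300.3 CPM (log2 -0.26, 95% interval -0.30 to -0.21). These differences lay outside counting error, but how much 2 control libraries would differ was not measured.

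**Figure D5:**
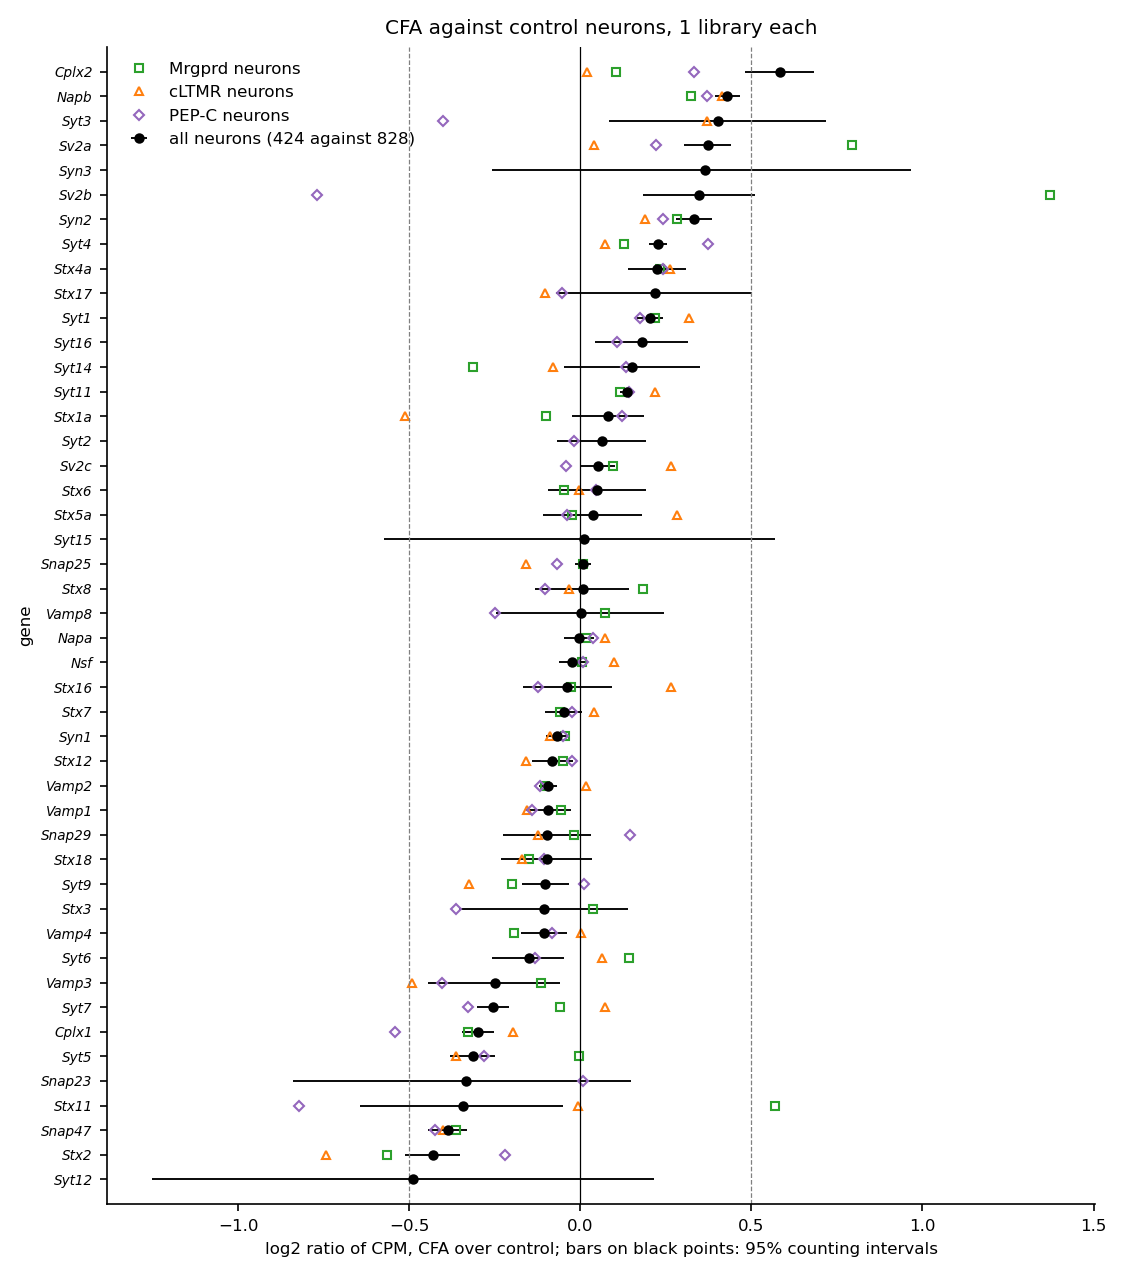
Log2 ratio of CPM, CFA over control, for 46 of the 47 members tested in all neurons (black, with 95% counting intervals) and for Mrgprd, cLTMR and peptidergic C (PEP-C) neurons where tested (open symbols), with dashed lines at 0.5 and -0.5. Cplx2 was the 1 black point past a line, and the class values of low genes such as Sv2b spread on both sides of 0.

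Single classes were compared where each library held at least 30 neurons. In Mrgprd neurons 4 of 39 members were past 0.5 upward (among them Sv2b, Sv2a and Stx11), where 4.23% of all genes were, and 1 downward (Stx2), where 6.42% were. The 4 were low in this class. Sv2b stood at 3.95 and 10.2 CPM on 42 and 39 UMIs, a log2 ratio of 1.37 (95% interval 0.71 to 2.04). Sv2a stood at 8.46 and 14.7 CPM (log2 0.80, 95% interval 0.29 to 1.29), and without the neuron with the most UMIs its log2 ratio was 0.03. The interval of Stx11 (log2 0.57, 95% interval -0.19 to 1.30) included 0. Stx2 stood at 157 and 106 CPM (log2 -0.57, 95% interval -0.73 to -0.41) on 1668 and 404 UMIs.

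In cLTMRs 0 of 38 members were past 0.5 upward, where 4.80% of all genes were, and 2 downward (Stx2 and Stx1a), where 7.57% were. Stx2 stood at 69.5 and 41.5 CPM (log2 -0.74, 95% interval -1.11 to -0.39) and Stx1a at 32.9 and 23.1 CPM (log2 -0.51, 95% interval -1.02 to -0.03). In peptidergic C neurons 0 of 44 were past 0.5 upward, where 4.76% of all genes were, and 3 downward (Cplx1, Stx11 and Sv2b), where 7.31% were. Cplx1 stood at 141 and 97.04 CPM there (log2 -0.54, 95% interval -0.67 to -0.41), Stx11 at 12.8 and 7.23 CPM (log2 -0.82, 95% interval -1.31 to -0.36) and Sv2b at 6.94 and 4.07 CPM (log2 -0.77, 95% interval -1.44 to -0.14). With every cell weighted equally, the log2 ratio was -0.42 for Cplx1 and -0.24 for Sv2b. The shares of members called were near or below those of all genes, except the higher ones in Mrgprd neurons (10.3%). In the same peptidergic C neurons Syt4 stood at 1201 and 1554 CPM (log2 0.37, 95% interval 0.34 to 0.41).

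In satellite glia 2 of 26 members were past 0.5 upward (Stx12 and Vamp4), where 11.0% of all genes were, and 4 downward (Nsf, Stx6, Syn1 and Stx8, the last named after its values were seen), where 10.3% were. Stx12 stood at 73.4 and 105 CPM (log2 0.52, 95% interval 0.13 to 0.91) and Vamp4 at 42.3 and 65.3 CPM (log2 0.63, 95% interval 0.11 to 1.13), while the intervals of the 4 included 0. Short of 0.5, Syt11 stood at 838 and 1016 CPM (log2 0.28, 95% interval 0.16 to 0.40) and Vamp2 at 196 and 203 CPM (log2 0.06, 95% interval -0.21 to 0.32). In myelinating Schwann cells 0 of 30 members were past 0.5 upward, where 10.6% of all genes were, and 4 downward (Snap25, Snap47, Sv2c and Syn3), where 12.1% were. Snap25 stood at 68.5 and 32.7 CPM (log2 -1.07, 95% interval -1.61 to -0.55) and Snap47 at 25.4 and 8.61 CPM (log2 -1.56, 95% interval -2.68 to -0.59), and the intervals of Sv2c and Syn3 included 0. The median of the 7 neuron markers there was 5.53% of the neuronal level for the control and 2.75% for the CFA library. The part of this RNA in the difference was not tested.

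Other genes of release and membrane traffic, such as the Munc, RIM, Rab3 and synaptophysin families, were counted in the same way. The list also held genes of endocytosis, such as Amph and Dnm1, and SNAREs of traffic between organelles, such as Sec22b and Gosr1. Of 55 tested, 36 were at least 2-fold higher in neurons than in satellite glia, where 30.0% of all genes were, and 2 lower, where 14.1% were (Stxbp3 with log2 ratios of -3.42 and -3.72 and Sypl with -1.63 and -1.34). Between Nefh and peptidergic C neurons 5 of 52 were higher (Amph, Cadps2, Rph3a, Syp and Sytl2), against 4.50% of all genes, and 11 lower, against 7.68%. Syp, the vesicle protein synaptophysin, had log2 ratios of 1.27 and 1.13, and Cadps2, a priming factor, of 2.14 and 3.37. The priming factor gene Unc13b (-2.40 and -1.70) and the active zone gene Rims2 (-1.25 and -1.65) were lower. Between CFA and control neurons 1 of 59 was past 0.5 upward (Rab3b, log2 0.62, 95% interval 0.46 to 0.78) and 1 downward (Unc13d, log2 -0.69, 95% interval -1.21 to -0.19), with a median log2 ratio of 0.03. Of all genes, 6.46% were past 0.5 upward and 6.05% downward.

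Genes of dense-core vesicles, which carry neuropeptides, were at least 2-fold higher in neurons than in satellite glia for 13 of 14, against 30.0% of all genes. Between Nefh and peptidergic C neurons 3 of 14 were at least 2-fold lower, against 7.68% of all genes. Another 1 was higher, against 4.50%, and 10 were neither. The granin gene Scg2 was lower in Nefh than in peptidergic C neurons (log2 -3.58 and -3.23), as was Vgf (-1.11 and -2.39), whereas Cpe, which trims peptide precursors, was higher (1.13 and 1.32). Between CFA and control neurons 1 of the 14 was past 0.5 downward, Ptprn2 at -0.86 (95% interval -1.18 to -0.54), against 6.05% of all genes.

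At the low end, 13 members had under 200 neuronal UMIs over both libraries and 9 under 50 (Cplx3, Cplx4, Stx19, Syt8, Syt10, Syt13, Syt17, Vamp5 and Vamp9). The pattern of these 9 across the neuron classes was not detectable at this depth. Syt12 and Syt15 were also low. Syt12 stood at 18.4 and 8.28 CPM in Nefh neurons, 12.3 and 13.7 CPM in Trpm8 neurons and 18.4 and 19.5 CPM in fibroblasts, and Syt15 at 14.9 and 30.3 CPM in Mrgpra3 neurons and 24.8 and 46.4 CPM in endothelial cells. Both were picked out after their values were seen. The last 1000 bases of 4 members (Stx18, Syn1, Syt6 and Syt12) overlap an exon of a gene on the other strand, and whether the counting used strand is not given in the sources used here.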

How the data were processed

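The authors captured single cells of right trigeminal ganglia on the BD Rhapsody system and deposited, for each of 2 libraries, raw UMI counts for every gene in every cell, whole numbers without normalization. The submitters' processing notes name the build GRCm38 and fastp. The counting program, its settings and whether intronic reads or strand were used are not given in the sources used here. Members, gates, gene lists and thresholds were chosen with earlier results of these data known.

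Cells with fewer than 150 genes or over 25% mitochondrial UMIs were left out. Cells were then assigned by raw UMIs. Neurons had at least 5 UMIs of Tubb3 and 2000 in all. Neuron classes needed at least 5 UMIs of Mrgprd, of Mrgpra3 or of Sst or Nppb, at least 3 of Trpm8, or at least 5 of P2ry1 and 3 of Tafa4 with under 20 of Nefh (cLTMR). Remaining neurons were split at 20 UMIs of Nefh and then at 50 of Calca, or at 20 of Calca and 10 of Tac1 (peptidergic C). The 70 control and 47 CFA neurons in no class, those with more than 1 class marker among them, stayed in the sum of all neurons only. Non-neuronal cells had at most 1 UMI of Tubb3 and markers such as Fabp7 (at least 3, satellite glia) or Mog (at least 3, oligodendrocytes). No doublet caller was run.

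UMIs of the cells of a class were added up within each library and expressed as CPM, with exact Poisson intervals. Shares were given with Clopper-Pearson intervals and ratios with conditional exact binomial intervals, at 95% (Python 3.11.15, numpy 2.4.6, scipy 1.17.1, pandas 2.3.3, figures with matplotlib 3.10.9). Where a class had 0 UMIs, a floor of 3 counts was used. A pair needed at least 50 UMIs. A class difference was called at 2-fold or more in both libraries, and CFA over control at a log2 ratio of 0.5 or more in size. The ratios and intervals were tested on simulated data. Named with their values were Napb, Cplx1, Snap25 and Sv2b, members with at least 100 CPM in their highest class or a 4-fold range across neuron classes in both libraries, members at least 2-fold higher in a glial class than in neurons, and members past 0.5 between CFA and control in all neurons or a class of at least 30 neurons, 39 in all. Positions are from GENCODE M21 (GRCm38). Promoters came from RefSeq (GRCm38.p6), with no entry used for 12 members, among them Cplx4, Snap25, Syn3, Syt4, Syt5, Syt7, Syt12, Syt13, Syt17, Vamp2 and Vamp3. The values of 1 member, which stays in the counts, are not reported here.

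Alternatives were a stricter cell filter (300 genes, 10% mitochondrial UMIs) or no mitochondrial limit, doubled marker thresholds, neurons of at least 10000 UMIs, removal of the 25% of neurons with the highest share of glial markers, totals without mitochondrial genes, centring on the median of all genes, equal weight for each cell, minimums of 200 or 10 UMIs and the same mix of neuron classes in both libraries. Removal of the neuron with the most UMIs of a gene and of neurons in no class were added after seeing the data.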

Additional observations from a re-analysis of the deposited data

Results flagged for a closer look

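Sv2b and Stx11 went in opposite directions in a pair of neuron classes of the same libraries. The log2 ratio of CFA over control for Sv2b was 1.37 in Mrgprd neurons and -0.77 in peptidergic C neurons. That for Stx11 was 0.57 in Mrgprd neurons and -0.82 in peptidergic C neurons. The differences between the classes were not tested, since each condition had 1 library. Both genes were low there: Sv2b had 42 and 39 UMIs in Mrgprd neurons and 97 and 27 in peptidergic C neurons, and Stx11 had 47 and 25, and 179 and 48. Without the neuron with the most UMIs of the gene, Sv2b stood at 2.94 and 8.40 CPM in Mrgprd and 6.39 and 3.48 CPM in peptidergic C neurons, and Stx11 at 4.07 and 5.69 CPM and 12.4 and 6.54 CPM.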

How the results depend on the processing

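No paired analysis was possible because each condition had 1 library. Differences between the libraries cannot be told apart from differences between mice, preparations or sequencing runs. The class counts kept to within 1.5 times the main value under all alternatives run, with 26 to 32 members higher in neurons than in satellite glia (28 in the report), 4 to 6 higher and 5 to 9 lower in Nefh than in peptidergic C neurons (6 and 6), except the count of members higher in satellite glia, which was 2 with at least 200 UMIs required (4 in the report, fewer genes being tested). The median log2 ratio of CFA over control of the members lay between -0.04 and 0.01. The CFA call upward (1 in the report, Cplx2) was 0 without the neurons with most glial RNA, with the same mix of classes, with neurons in a class alone and without the neuron with the most UMIs of the gene, and 2 with equal weight per cell (Cplx2 and Sv2b) and with at least 10 UMIs (Cplx2 and Syt13). The CFA calls downward (0 in the report) were 1 with the stricter cell filter, doubled thresholds, at least 10000 UMIs, neurons in a class alone or without the top neuron (Syt12 each time), 1 without the neurons with most glial RNA (Stx11) and 2 with the same mix of classes (Stx11 and Syt12). The cause of these shifts was not tested, apart from the single Cplx2 neuron given in the report. Syt12 rested on 71 and 22 UMIs. Of 108 single values, 1103 recomputations gave 1051 inside the main counting interval and 52 outside it. The minimums of 200 and 10 UMIs leave a ratio unchanged, so those recomputations were inside by design. Ratios no longer tested, or without a value, were left out. The number inside is therefore no measure of how stable the values are. None of the values past a fold changed sign, and 24 recomputations, for 9 members, fell short of the fold.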
